A study of Homo sapiens with 15 samples.

Results

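The genes described here are 10 regulators of mTORC1, the kinase complex that couples amino acids, growth factors and energy to protein synthesis: DDIT4, SESN1, SESN2, SESN3, DEPTOR, TSC1, TSC2, RRAGC, RRAGD and RPTOR. They were taken by name from a table of 61533 gene identifiers in 15 RNA-seq libraries, and all 10 were among the 18391 genes that passed the filter on low counts. They were chosen knowing that DDIT4 was low in cells with the YAP-MAML2 fusion, that is, they were selected on the counts of DDIT4 in fusion and eGFP control cells. The levels of these genes against control cells are therefore given as a description and not as a test.

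All cells were HEK293 (HEK293T in the labels), a human embryonic kidney line, and polyA RNA was sequenced. SPARK-OFF cells carried YAP-MAML2, a cancer fusion of the Hippo effector YAP1 and the Notch coactivator MAML2, joined to FKBP and mEGFP, together with nuclear mCherry joined to Frb. Rapamycin binds FKBP and Frb together, brings mCherry to the fusion and dissolves its condensates, so the fusion is diffuse in SPARK-OFF cells with rapamycin and condensed in SPARK-OFF cells with DMSO, the vehicle. The second fusion line, called no-mCherry here, is labelled as the YAP-MAML2 control, carried the tagged fusion without mCherry and received rapamycin or DMSO in the same way. Exposure lasted 5 h in these 4 groups. The last group was eGFP control cells, which are labelled mock with no duration, so that fusion cells differ from them also in vehicle or drug. Each group had 3 libraries. Rapamycin is itself an inhibitor of mTORC1, and the no-mCherry pair measures its effect where condensates cannot be dissolved by mCherry. The title and the treatment field of the no-mCherry DMSO libraries name DMSO while their description names rapamycin, and the title was followed. No source used here says whether the 3 libraries of a group were independent cultures or a line is 1 clone, so the p-values reflect the scatter among these libraries, which may be technical.

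Totals ran between 14720387 and 24797509 counts per library. MAML2, whose sequence is in the fusion, averaged 540 CPM (counts as a share of the library size, scaled by TMM and set to a common total) in SPARK-OFF cells with rapamycin, 415 in SPARK-OFF cells with DMSO, 243 in no-mCherry cells with rapamycin, 220 in no-mCherry cells with DMSO and 3.63 in eGFP control cells. Thus the fusion transcript was present in the 4 fusion groups and was more abundant in the SPARK-OFF line. No-mCherry DMSO replicate 3 correlated least with its own group (mean r 0.989, against up to 0.995 elsewhere). The HEK293 markers PAX2, VIM, NEFM, KRT8 and KRT18 were detected in every group but differed between fusion and control cells. In group means KRT8 had 324.5 to 838 CPM in the 4 fusion groups against 32.8 CPM in eGFP control cells, and KRT18 had 91.85 to 200.2 against 23.8 CPM. NEFM had 30.5 to 52.7 CPM in the fusion groups against 107 CPM in eGFP control cells, PAX2 2.32 to 3.96 against 4.56 CPM, and VIM 136.5 to 218.5 against 217.5 CPM. The part of these differences in the values below was not tested. CD3E and INS had no counts, and PTPRC, ALB and PECAM1 stayed at or below 0.462 CPM.

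mTORC1 is switched on at the lysosome by the small GTPase Rheb and is brought there by Rag GTPases. DDIT4 (REDD1), induced by hypoxia, glucocorticoids and other stresses, restrains mTORC1 through the TSC complex, in which TSC1 holds TSC2 and TSC2 inactivates Rheb. The Sestrins bind GATOR2 and report amino acid shortage to the Rags, and SESN2 is also known as an ATF4 target and SESN3 as a FOXO target. RRAGC and RRAGD are the Rag subunits that pair with RRAGA or RRAGB, RPTOR is the scaffold of mTORC1 that recruits substrates, and DEPTOR is an inhibitory subunit. On hg38, DDIT4 lies on chromosome 10 (72273919 to 72276036, plus strand), SESN1 on chromosome 6 (108984309 to 109094846, minus), SESN3 on chromosome 11 (95165513 to 95232541, minus) and RRAGC on chromosome 1 (38838198 to 38859772, minus). SESN2 and RRAGD are on chromosomes 1 and 6, TSC1 on 9, TSC2 on 16 and RPTOR on 17. Exons of other annotated genes cover 23.1% of the exon bases of RRAGC and 9.59% of those of DEPTOR, in part an antisense gene, and at most 4.99% for the others. Whether the counting used strand is not given, so such reads could belong to either gene.

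Promoter windows from RefSeq (GRCh38.p14) exist for 8 of the 10 genes, as 11 windows. The bases upstream of the annotated start were searched on both strands for CACGTG (E-box, the core of the TFEB site), GGAATG (TEAD core), GTAAACA (FOXO core), TGACGTCA (cyclic AMP response element), ACGTG (hypoxia response core, which is also inside CACGTG) and TGATGNAAT (ATF4 composite element). The windows of DDIT4 and RRAGC are shown because DDIT4 had the lowest level in fusion cells relative to eGFP control cells and RRAGC was the member that was higher in every fusion group. Capitals mark the matches.
DDIT4, chr10:72273674-72273918, plus strand: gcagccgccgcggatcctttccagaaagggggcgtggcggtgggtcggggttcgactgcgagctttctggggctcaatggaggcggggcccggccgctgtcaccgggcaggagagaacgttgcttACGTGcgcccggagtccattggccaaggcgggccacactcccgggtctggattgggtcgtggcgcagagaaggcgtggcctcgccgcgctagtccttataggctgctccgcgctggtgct
RRAGC, chr1:38859773-38860022, minus strand: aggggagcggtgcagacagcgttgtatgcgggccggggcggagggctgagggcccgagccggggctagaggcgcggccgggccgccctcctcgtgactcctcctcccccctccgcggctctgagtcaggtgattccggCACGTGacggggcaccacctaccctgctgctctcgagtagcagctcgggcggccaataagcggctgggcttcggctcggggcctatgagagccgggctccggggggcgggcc
In DDIT4 the capitals are ACGTG at bases 126 to 130 of the window, a motif held by 18.5% of the 35116 RefSeq windows. This window, 68.6% G and C, overlaps an exon of a neighbouring gene without a name. In RRAGC the capitals are an E-box at bases 139 to 144, held by 6.34% of windows, and the window overlaps RRAGC-DT. TSC2 also had an E-box, at bases 137 to 142 of its window. A SESN1 window inside the gene held the TEAD core (11.9% of windows). Another SESN1 window and the TSC1 window also lay inside their genes, upstream of a RefSeq start there. None of these 11 windows held the FOXO core (2.98%), the cyclic AMP response element (1.65%) or the ATF4 element (0.888%). The shares are from windows of 250 bases, and several member windows were shorter. A TSC2 window had only 15 bases, all inside the other TSC2 window. A match is a description of letters and not evidence of binding.

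DDIT4 was the most abundant member per kilobase of transcript in eGFP control cells, and the one with the widest fold range of group means. Its level was 35.2, 34.0 and 35.0 CPM in SPARK-OFF cells with rapamycin, 35.9, 36.9 and 36.4 CPM in SPARK-OFF cells with DMSO, 39.9, 32.1 and 32.4 CPM in no-mCherry cells with rapamycin and 46.25, 63.7 and 43.4 CPM in no-mCherry cells with DMSO, against 143, 101.5 and 123 CPM in eGFP control cells. Every fusion library lay below every eGFP control library. In RNA of whole cultures, fewer expressing cells and less RNA per cell cannot be told apart. Among the fusion groups the no-mCherry cells with DMSO stood highest, and the other 3 groups lay close together. The log2 fold change against eGFP control cells was -1.82 (standard error, SE, 0.133) for SPARK-OFF rapamycin, -1.75 (SE 0.133) for SPARK-OFF DMSO, -1.81 (SE 0.133) for no-mCherry rapamycin and -1.26 (SE 0.131) for no-mCherry DMSO. These are levels 71.6%, 70.3%, 71.6% and 58.2% lower in fusion cells. Without no-mCherry DMSO replicate 2, the highest of its group, the log2 fold change of no-mCherry DMSO was -1.45. All these comparisons use the same eGFP control libraries. Per kilobase of the canonical transcript, DDIT4 stood at 20.9 ± 0.285 CPM (SD, n = 3) in SPARK-OFF cells with DMSO, where TSC2 stood at 16.3 ± 1.29, and at 70.2 ± 11.8 CPM in eGFP control cells, where TSC2 stood at 20.5 ± 1.82.

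**Figure D1:**
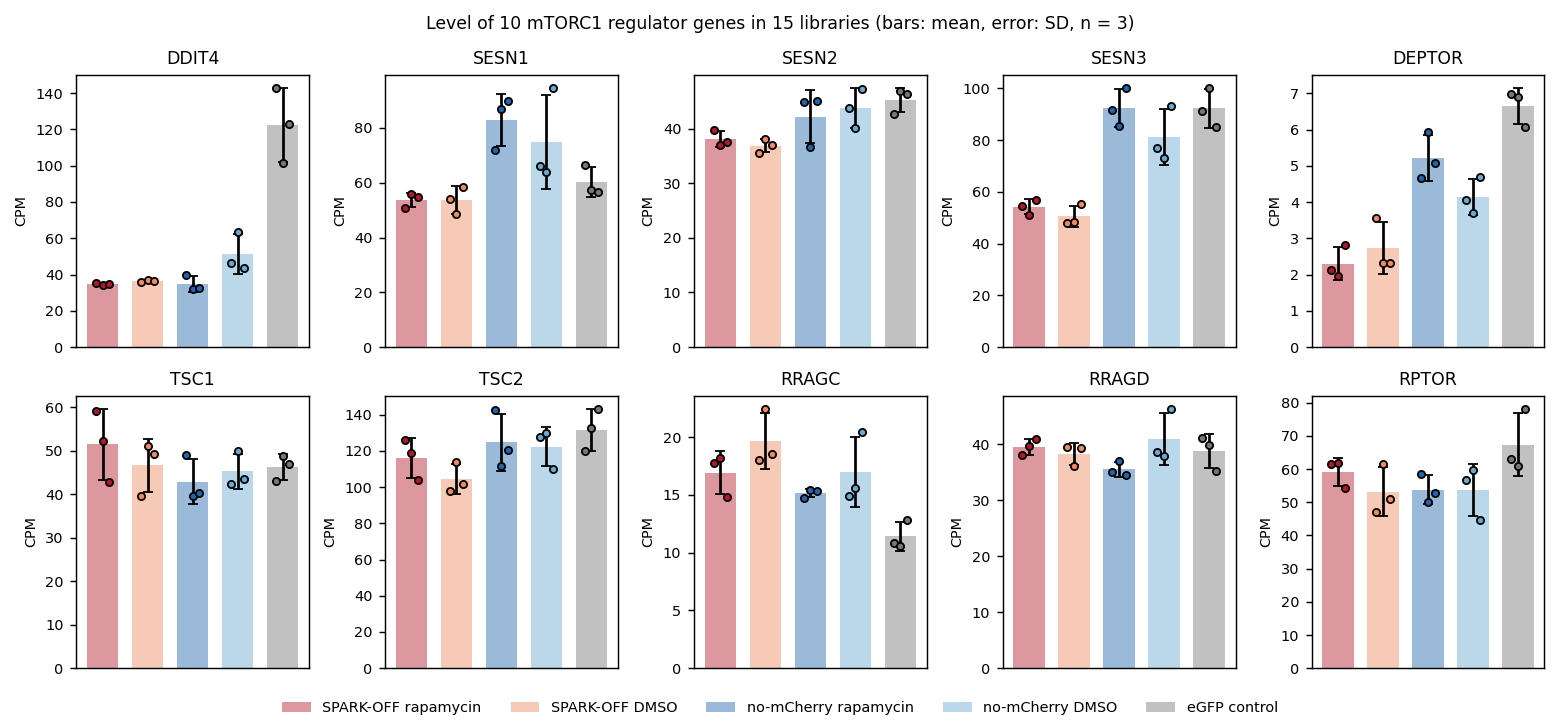
CPM of each of the 10 genes in the 15 libraries (points), with the mean (bars) and SD (error bars, n = 3) of each group, each panel on its own axis from 0. DDIT4 averaged 34.7 to 51.1 CPM in the fusion groups and 122 CPM in eGFP control cells, SESN3 and DEPTOR were lowest in both SPARK-OFF groups, and RRAGC was lowest in eGFP control cells.

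In eGFP control cells the order per kilobase below DDIT4 was TSC2, then SESN2 at 13.1 ± 0.659 CPM, SESN1 at 10.6 ± 0.961, RPTOR at 9.85 ± 1.38, SESN3 at 9.64 ± 0.803, RRAGD at 7.88 ± 0.629, TSC1 at 5.38 ± 0.336, RRAGC at 4.255 ± 0.454 and DEPTOR at 2.59 ± 0.198 (SD, n = 3 each). SESN1, RPTOR and SESN3 did not differ beyond their spread. TSC2 and SESN2 thus stood above the rest apart from DDIT4, and DEPTOR stood lowest.

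SESN3 and SESN1 were lower in SPARK-OFF cells than in no-mCherry cells, which is tested below, and SESN2 differed less. SESN3 had 54.7, 51.1 and 56.9 CPM in SPARK-OFF cells with rapamycin and 47.9, 48.3 and 55.3 CPM with DMSO. In the no-mCherry line it had 91.65, 85.35 and 99.95 CPM with rapamycin and 77.0, 73.2 and 93.3 CPM with DMSO, and in eGFP control cells 91.3, 100.3 and 85.1 CPM. All 6 SPARK-OFF libraries were below every other library, and the no-mCherry libraries overlapped those of eGFP control cells. The log2 fold change of SESN3 against eGFP control cells was -0.77 (SE 0.103) in SPARK-OFF cells with rapamycin and -0.87 (SE 0.104) with DMSO, and 0.00 (SE 0.102) and -0.18 (SE 0.102) in no-mCherry cells with rapamycin and with DMSO.

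SESN1 had 50.6, 55.8 and 54.7 CPM in SPARK-OFF cells with rapamycin and 54.2, 48.4 and 58.6 CPM with DMSO. In the no-mCherry line it had 71.9, 87.0 and 89.7 CPM with rapamycin and 66.2, 63.9 and 94.75 CPM with DMSO, against 66.4, 57.5 and 56.6 CPM in eGFP control cells. The no-mCherry line therefore had the highest values and SPARK-OFF cells the lowest, with eGFP control cells between them or overlapping. Against eGFP control cells the log2 fold change was -0.16 (SE 0.128) in both SPARK-OFF groups, 0.46 (SE 0.127) in no-mCherry cells with rapamycin and 0.32 (SE 0.127) with DMSO, and the last was 0.11 without no-mCherry DMSO replicate 3. SESN2 varied less, with ranges of 36.9 to 39.8 CPM in SPARK-OFF cells with rapamycin, 35.6 to 38.0 with DMSO, 36.55 to 44.97 in no-mCherry cells with rapamycin, 40.1 to 47.3 with DMSO and 42.6 to 46.8 in eGFP control cells. Both SPARK-OFF groups lay below the eGFP control libraries for SESN2, by a log2 fold change of -0.25 (SE 0.0985) with rapamycin and -0.30 (SE 0.099) with DMSO.

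DEPTOR, on chromosome 8 (119873717 to 120050918, plus strand), was the least abundant member, with 36 to 117 counts per library. Its level was 2.13, 1.96 and 2.81 CPM in SPARK-OFF cells with rapamycin, 3.57, 2.32 and 2.315 CPM in SPARK-OFF cells with DMSO, 4.67, 5.92 and 5.09 CPM in no-mCherry cells with rapamycin and 4.05, 3.70 and 4.68 CPM in no-mCherry cells with DMSO, against 6.997, 6.90 and 6.07 CPM in eGFP control cells. As for SESN3 the SPARK-OFF cells were lowest, but here every fusion library was below every eGFP control library. The log2 fold change against eGFP control cells was -1.51 (SE 0.217) in SPARK-OFF cells with rapamycin, -1.27 (SE 0.215) with DMSO, -0.35 (SE 0.202) in no-mCherry cells with rapamycin and -0.68 (SE 0.208) with DMSO.

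RRAGC was the member with higher values in all fusion groups. It had 17.8, 18.2 and 14.8 CPM in SPARK-OFF cells with rapamycin, 18.0, 22.5 and 18.6 CPM with DMSO, 14.8, 15.4 and 15.4 CPM in no-mCherry cells with rapamycin and 14.9, 15.6 and 20.5 CPM with DMSO, against 10.9, 10.55 and 12.8 CPM in eGFP control cells. No fusion library reached down to the eGFP control libraries. The log2 fold change was 0.57 (SE 0.141), 0.79 (SE 0.14), 0.415 (SE 0.142) and 0.58 (SE 0.142), in the same order of groups. Its close relative RRAGD stayed between 34.5 and 46.4 CPM in all 15 libraries, with log2 fold changes of -0.13 to 0.08 against eGFP control cells. The Rag partners RRAGA and RRAGB had higher means in all 4 fusion groups, as RRAGC did. RRAGA averaged 96.7 to 115.8 CPM in the fusion groups against 85.9 CPM in eGFP control cells, and RRAGB 24.4 to 28.5 against 18.4 CPM. RRAGB was called in each group (log2 fold change 0.405 to 0.63), and RRAGA in each (0.28 to 0.43) but no-mCherry cells with DMSO (0.17, edgeR adjusted p = 0.197).

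The TSC subunits and RPTOR differed less. TSC1 lay between 39.5 and 59.2 CPM, with fusion libraries that overlapped those of eGFP control cells in every group. TSC2 had 104 to 126 CPM in SPARK-OFF cells with rapamycin, 97.7 to 114 with DMSO, 112 to 142 in the no-mCherry line with rapamycin and 110.0 to 129.6 with DMSO, against 119.7 to 143 in eGFP control cells. In SPARK-OFF cells with DMSO, TSC2 was below all eGFP control libraries (log2 fold change -0.335, SE 0.107), and in the other groups it overlapped them. RPTOR had 54.35 to 61.8 CPM in SPARK-OFF cells with rapamycin, 47.2 to 61.4 with DMSO, 50.0 to 58.5 in the no-mCherry line with rapamycin and 44.7 to 59.6 with DMSO, against 60.8 to 78.2 in eGFP control cells. Its log2 fold change was -0.19 to -0.34, and only the no-mCherry groups lay wholly below the eGFP control libraries.

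**Figure D2:**
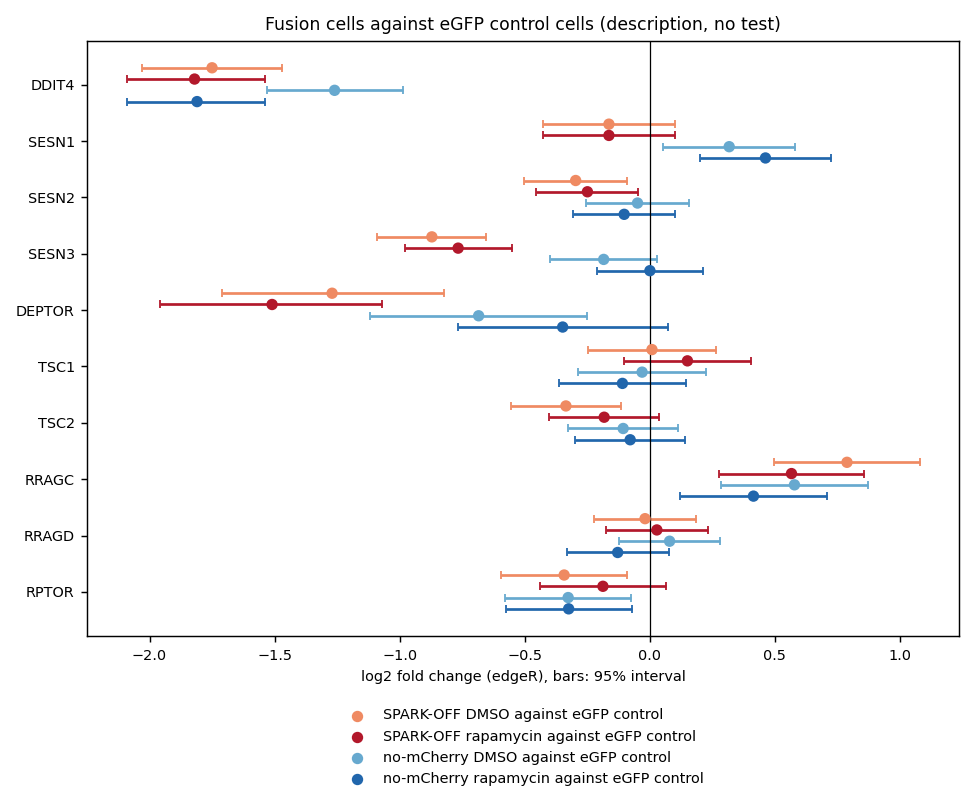
Log2 fold change of each gene (edgeR) in each of the 4 fusion groups against eGFP control cells, with 95% intervals as bars and 0 (no difference) as a vertical line. DDIT4 lies between -1.82 and -1.26 and RRAGC between 0.415 and 0.79 in all 4 groups, while SESN3 is at -0.87 and -0.77 in SPARK-OFF cells but near 0 in the no-mCherry line. The genes were chosen knowing DDIT4 in this contrast, so the intervals are a description and not a test.

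Counted over the 10 genes, 1 lay wholly above and 5 wholly below the eGFP control libraries in SPARK-OFF cells with rapamycin, and also in SPARK-OFF cells with DMSO. With rapamycin 40.6% of all genes did not overlap, and with DMSO 40.5%. In the no-mCherry line the counts were 2 above and 3 below with rapamycin (35.1% of all genes) and 1 above and 3 below with DMSO (28.6% of all genes). Nothing is read from these counts, since DDIT4 in this contrast led to the choice of the genes.

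The 2 fusion lines were compared with each other within each treatment, which sets the line with mCherry against the line without it. Both carry the fusion and both had the same exposure, but the lines also differ in fusion transcript. With rapamycin they differ in condensates too, which are dissolved in SPARK-OFF cells alone. The rapamycin comparison therefore mixes line and fusion state, and their parts were not tested. With DMSO, SESN3, SESN1 and DDIT4 fell in SPARK-OFF cells relative to no-mCherry cells, and with rapamycin SESN3, SESN1 and DEPTOR did. Thus 2 of the 3 Sestrins were lower in the SPARK-OFF line in both treatments, by 28.3% to 41.2%, and no member was called higher. Genes were called at an adjusted p under 0.05 by edgeR's quasi-likelihood test over all 15 libraries, with Benjamini-Hochberg adjustment over all genes tested.

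With DMSO, 3 of the 10 genes were called, all lower, against 7.03% of all genes called and 3.25% called lower. SESN3 had a log2 fold change of -0.69 (SE 0.104, edgeR adjusted p = 0.000194), with all SPARK-OFF libraries below all no-mCherry libraries. SESN1 had -0.48 (SE 0.127, edgeR adjusted p = 0.0238) and DDIT4 -0.49 (SE 0.133, edgeR adjusted p = 0.0262), both without overlap of the libraries, as held for 23.2% of all genes. DEPTOR at -0.59 (adjusted p = 0.111 in edgeR) and SESN2 at -0.25 (adjusted p = 0.135 in edgeR) also had no overlap but did not pass. The median log2 fold change over the 10 genes was -0.24, against -0.02 over all genes tested.

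With rapamycin, 3 of the 10 were again called lower, where 14% of all genes were called and 6.88% were called lower. SESN3 had a log2 fold change of -0.77 (SE 0.103, edgeR adjusted p = 2.7e-05). DEPTOR fell by 1.17 on the log2 scale (SE 0.217, edgeR adjusted p = 0.000891) to a level 55.5% lower, and SESN1 by 0.63 (SE 0.127, edgeR adjusted p = 0.00183). The libraries of both lines did not overlap for any of these genes, as held for 35.8% of all genes. DDIT4 had a log2 fold change of -0.00272 between the lines with rapamycin (95% interval -0.28 to 0.27, edgeR adjusted p = 0.993), and its libraries overlapped. TSC1, TSC2, RRAGC, RRAGD, RPTOR and SESN2 had log2 fold changes between -0.15 and 0.26 and did not pass. Among them RRAGD had no overlap, with 38.05 to 40.96 CPM in SPARK-OFF cells against 34.5 to 37.1 CPM in no-mCherry cells (log2 fold change 0.16, edgeR adjusted p = 0.321), and TSC1 at 0.26 had an unadjusted p of 0.0443 in edgeR (adjusted p = 0.17). The median log2 fold change over the 10 genes was -0.05 with rapamycin, against -0.0016 over all genes tested. The gap between the treatments in these values is the interaction described below, which passed for neither DDIT4 nor DEPTOR (edgeR adjusted p = 0.569 and 0.714). The fusion libraries are those in which the low DDIT4 level was seen, so the DDIT4 values here share libraries with the choice of the genes.

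**Figure D3:**
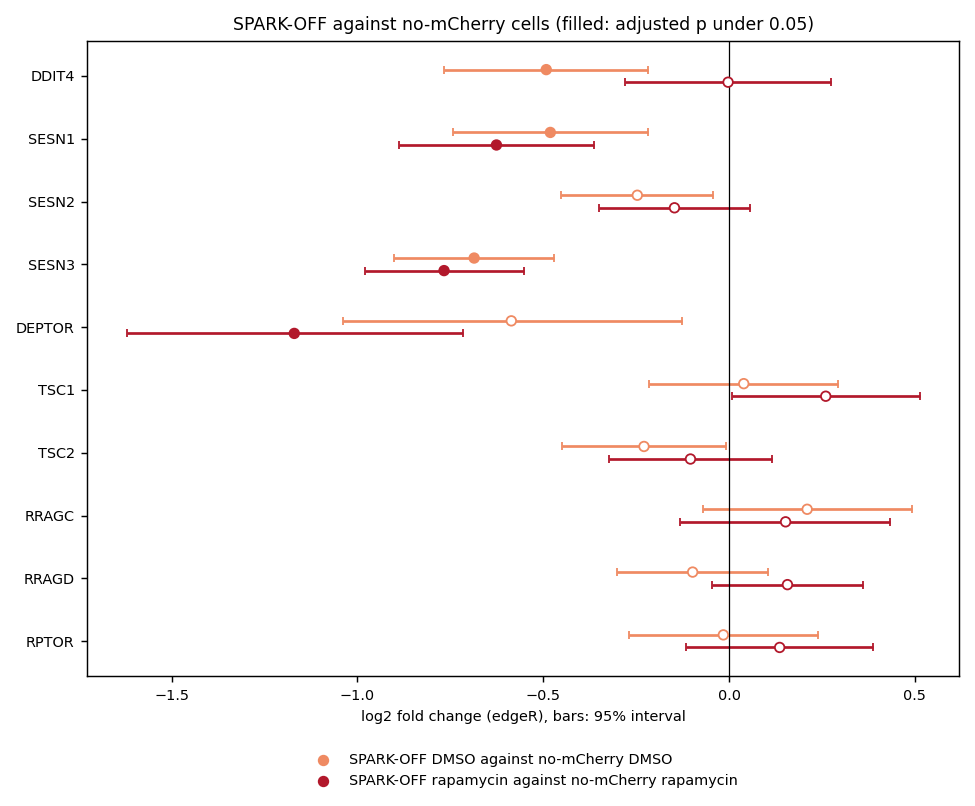
Log2 fold change of each gene (edgeR) in SPARK-OFF cells against no-mCherry cells, with DMSO and with rapamycin, with 95% intervals as bars. Filled points passed an adjusted p under 0.05. SESN3 is filled at -0.69 and -0.77 and SESN1 at -0.48 and -0.63, whereas DDIT4 is filled with DMSO alone (-0.49) and DEPTOR with rapamycin alone (-1.17).

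MAML2 differed in the same comparisons, by a log2 fold change of 1.15 with rapamycin and 0.91 with DMSO, and YAP1 by 0.85 and 0.63. The share of mitochondrially encoded counts spanned 2.86% to 3.33% over the SPARK-OFF libraries, below the 3.67% to 3.93% of all other libraries. The part of either in the Sestrin values was not tested. The DMSO calls of DDIT4 and SESN1 were the less firm ones. In a fit of the compared groups alone the log2 fold changes were nearly the same, -0.49 and -0.48, but the adjusted p was 0.0837 and 0.102. DDIT4 was no longer called without SPARK-OFF DMSO replicate 1 (log2 fold change -0.48, adjusted p = 0.0714 in edgeR), 2 (-0.50, 0.072) or 3 (-0.49, 0.086), or without no-mCherry DMSO replicate 2, which left a log2 fold change of -0.29 (adjusted p = 0.165). SESN1 was no longer called without SPARK-OFF DMSO replicate 1 (log2 fold change -0.49, adjusted p = 0.0582 in edgeR) or 2 (-0.41, 0.113), or without no-mCherry DMSO replicate 3, which left -0.28 (adjusted p = 0.106). DEPTOR was called with DMSO without SPARK-OFF DMSO replicate 1 (log2 fold change -0.84, adjusted p = 0.0468 in edgeR). SESN3 was called in both treatments whichever library was left out.

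Rapamycin was then set against DMSO within each line. In SPARK-OFF cells this takes the dissolved condensates and the drug together, and in no-mCherry cells the drug without dissolution. MAML2 also averaged higher with rapamycin than with DMSO in SPARK-OFF cells, as given above, and its part was not tested. None of the 10 genes passed the test in SPARK-OFF cells. In no-mCherry cells DDIT4 fell, to 34.8 ± 4.43 CPM with rapamycin, against 51.1 ± 11 CPM with DMSO (SD, n = 3 each).

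In SPARK-OFF cells 0 of the 10 genes were called by edgeR, 0 had an unadjusted p under 0.05 and 0 were called by DESeq2, where edgeR called 0.13% of all genes. DDIT4 had a log2 fold change of -0.07 (95% interval -0.34 to 0.21, edgeR adjusted p = 0.989). Its libraries did not overlap between the treatments, as held for 12.8% of all genes. The other 9 log2 fold changes lay between -0.245 (DEPTOR, 95% interval -0.72 to 0.23) and 0.155 (RPTOR, 95% interval -0.10 to 0.41). For SESN1 the interval was -0.26 to 0.26, and for SESN3 -0.11 to 0.32. Both the diffuse and the condensed state thus had the low DDIT4, SESN3 and DEPTOR levels described above.

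In no-mCherry cells 1 of the 10 genes was called, where 1.62% of all genes were called and 1.17% were called lower. DDIT4 had a log2 fold change of -0.56 (SE 0.133, 95% interval -0.83 to -0.28, edgeR adjusted p = 0.0336), a level 32.0% lower with rapamycin, and the libraries did not overlap, as held for 19.4% of all genes. RRAGD was also without overlap, at -0.21 (edgeR adjusted p = 0.325). The DDIT4 call ended in a fit of these groups alone (log2 fold change -0.55, adjusted p = 0.217), without no-mCherry rapamycin replicate 2 (log2 fold change -0.50, adjusted p = 0.151) or 3 (-0.51, adjusted p = 0.156), and without no-mCherry DMSO replicate 2, which had the highest DDIT4 level of the group (-0.36, adjusted p = 0.129, all in edgeR).

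Whether the response to rapamycin differed between the lines was tested as an interaction. For DDIT4 it was 0.49 (95% interval 0.10 to 0.88, unadjusted p = 0.0162 and adjusted p = 0.569 in edgeR), so a difference between the lines was not shown after adjustment. Of the 10 genes 0 passed in edgeR, 1 had an unadjusted p under 0.05 and 0 passed in DESeq2, where edgeR called 0.0979% of all genes. The share of all genes with an unadjusted p under 0.05 was not computed. Nothing is therefore read from such counts for the members or the lists. DEPTOR, the member with the lowest counts, had the widest interval (-1.22 to 0.06).

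**Figure D4:**
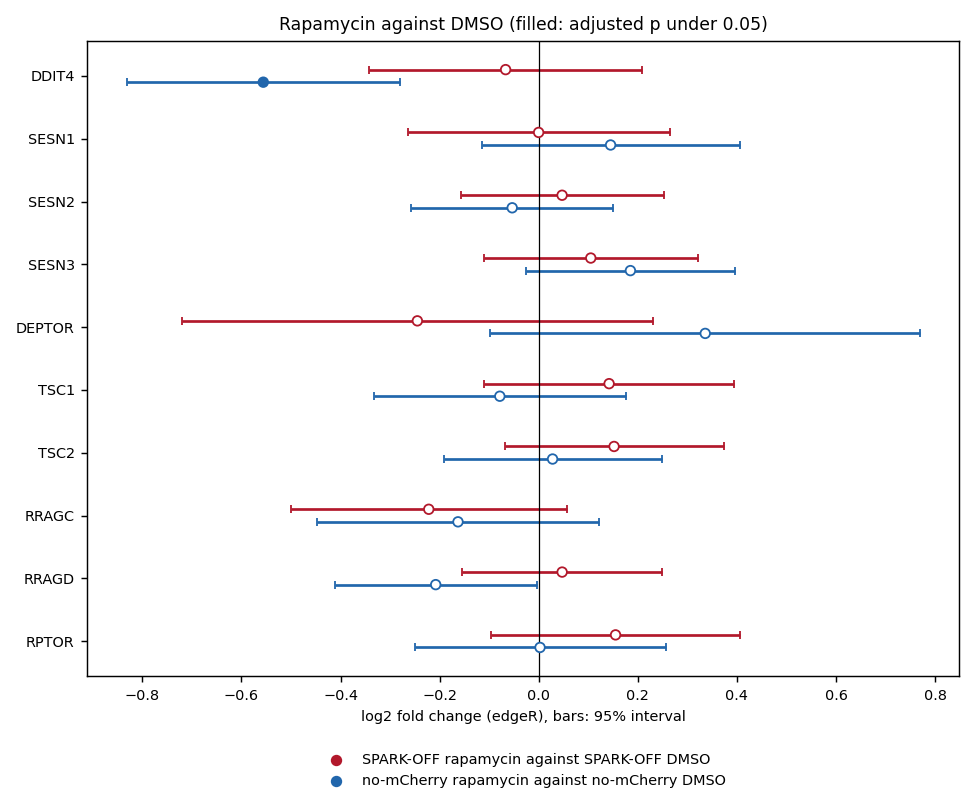
Log2 fold change of each gene (edgeR) with rapamycin against DMSO, in SPARK-OFF cells and in no-mCherry cells, with 95% intervals as bars. The filled point, DDIT4 in no-mCherry cells at -0.56, is the one with an adjusted p under 0.05, and the SPARK-OFF interval of every gene includes 0.

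The rest of the mTORC1 pathway was read from a list of 64 genes, of which 63 were tested: other mTOR complex subunits, TSC and Rheb, Rag and Ragulator, GATOR1, GATOR2, KICSTOR, amino acid sensors, folliculin, upstream kinases and effectors. With rapamycin in SPARK-OFF cells 0 passed in edgeR (2 had an unadjusted p under 0.05, and DESeq2 called 0), and in no-mCherry cells 1 of 63 was called, lower, where 1.62% of all genes were called. This was SEH1L, a GATOR2 subunit shared with the nuclear pore, at -0.54 (edgeR adjusted p = 0.00608). SEH1L was no longer called in a fit of these groups alone (-0.535, adjusted p = 0.127) or without no-mCherry rapamycin replicate 1 (-0.49, adjusted p = 0.0626). For the interaction 0 passed in edgeR, 4 had an unadjusted p under 0.05 and 1 passed in DESeq2. In SPARK-OFF cells relative to no-mCherry cells, 1 was higher and 1 lower with DMSO, where 7.03% of all genes were called, and 2 were higher and 3 lower with rapamycin, where 14% were.

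CASTOR2, listed among the amino acid sensors, was higher in SPARK-OFF cells than in no-mCherry cells in both treatments. The log2 fold change was 0.61 with rapamycin (edgeR adjusted p = 0.0021) and 0.48 with DMSO (edgeR adjusted p = 0.0249). CASTOR1 was the list gene not tested, with 0 to 10 counts per library. CASTOR2 has near-identical copies in the genome, so its counts are uncertain. MLST8, the mTOR subunit that steadies the kinase domain, was lower, by 0.59 on the log2 scale with rapamycin (edgeR adjusted p = 0.000632) and by 0.44 with DMSO (edgeR adjusted p = 0.0131). Its level was 46.6 ± 0.672 CPM in SPARK-OFF cells with rapamycin, against 70.1 ± 1.12 CPM in no-mCherry cells with rapamycin (SD, n = 3 each). With rapamycin SEH1L was higher as well (0.54), and the GATOR2 subunit WDR24 (-0.38) and STK11 (-0.35), the kinase that activates AMPK, were lower. SEH1L averaged 74.8 CPM in no-mCherry cells with rapamycin and 108.8 with DMSO, against 108.8 and 108.7 in SPARK-OFF cells. Its call between the lines thus rests on the same no-mCherry rapamycin libraries as its fall with rapamycin above. With DMSO the call of CASTOR2 ended with these groups alone (0.48, adjusted p = 0.0832) and without SPARK-OFF DMSO replicate 2 (0.45, 0.0835) or 3 (0.445, 0.0961) or no-mCherry DMSO replicate 3 (0.35, 0.0731). That of MLST8 ended with these groups alone (-0.44, 0.108) and without SPARK-OFF DMSO replicate 2 (-0.33, 0.0923) or no-mCherry DMSO replicate 2 (-0.33, 0.0746). With rapamycin CASTOR2, MLST8, SEH1L and STK11 were called in all 11 alternative fits, and WDR24 was no longer called without any 1 of the 6 libraries compared (-0.40 to -0.36, adjusted p up to 0.108, edgeR). SEH1L, WDR24, STK11, RRAGA and RRAGB, the DMSO values of CASTOR2 and MLST8, ATF4 and the values under 0.58 in size below were named after their values were seen.

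Against eGFP control cells 8 of the 63 were called higher and 14 lower in SPARK-OFF cells with rapamycin, where 11.4% of all genes were higher and 12.5% lower. With DMSO the counts were 8 and 15 (13% and 14.1% of all genes). In no-mCherry cells they were 6 and 8 with rapamycin (7.62% and 8.79%) and 9 and 6 with DMSO (7.08% and 6.41%). The median log2 fold change of the list was -0.08, 0.0016, -0.06 and -0.0041 in these groups, against 0.0045 to 0.0097 over all genes. MLST8 had the smallest p among list members in SPARK-OFF cells, at -0.86 with rapamycin (edgeR adjusted p = 2.66e-06) and -0.75 with DMSO (edgeR adjusted p = 1.71e-05). In no-mCherry cells it was at -0.28 and -0.31 and was not called. CASTOR2 was higher in SPARK-OFF cells (0.88 with rapamycin and 0.76 with DMSO) and was not called in no-mCherry cells (0.27 and 0.28). Several list genes differed from eGFP control cells in both lines. BMT2 (SAMTOR), a methionine-pathway sensor, was higher in all 4 fusion groups, at 0.70 and 0.72 in SPARK-OFF cells with rapamycin and with DMSO and 0.615 and 0.57 in no-mCherry cells. TFEB, the lysosomal transcription factor that mTORC1 holds in the cytoplasm, was lower in all 4, at -0.66 and -0.52 in SPARK-OFF cells and -0.63 and -0.69 in no-mCherry cells. So was the insulin signalling adaptor GRB10, at -0.53 and -0.71 in SPARK-OFF cells and -0.50 and -0.55 in no-mCherry cells. The insulin receptor substrate IRS1 was lower with DMSO in both lines (-0.64 in SPARK-OFF and -0.62 in no-mCherry cells) and was not called with rapamycin (-0.08 and -0.33). Set directly against DMSO, rapamycin gave no call of IRS1 in either line. RICTOR, the scaffold of mTORC2, was higher in no-mCherry cells with rapamycin and with DMSO (0.62 and 0.50) and in SPARK-OFF cells with rapamycin (0.37), and with DMSO there it had 0.30 (edgeR adjusted p = 0.0505). The mTORC2 subunit PRR5 was lower in no-mCherry cells (-0.59 and -0.46) and in SPARK-OFF cells with DMSO (-0.51), and had -0.24 with rapamycin there (edgeR adjusted p = 0.2). PRR5L was called in no-mCherry cells with rapamycin (-1.32) and had -0.47 to -0.59 in the other groups.

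Another list held 14 stress factors and targets, among them genes known to drive DDIT4 or the Sestrins or to share their inducers. CDKN1A, the cell cycle inhibitor, and MDM2, a ubiquitin ligase, were lower in SPARK-OFF cells than in no-mCherry cells. CDKN1A had 53.8 to 57.6 CPM in SPARK-OFF cells with rapamycin against 105.5 to 109 CPM in the no-mCherry line with rapamycin. It had 55.2 to 61.4 CPM in SPARK-OFF cells with DMSO against 86.4 to 99.55 CPM in no-mCherry cells with DMSO. These are log2 fold changes of -0.94 (edgeR adjusted p = 1.52e-07) and -0.66 (edgeR adjusted p = 2.02e-05). For MDM2 they were -0.63 (edgeR adjusted p = 0.000117) with rapamycin and -0.73 (edgeR adjusted p = 3.01e-05) with DMSO. TXNIP, a glucose-responsive arrestin, was also lower in SPARK-OFF cells than in no-mCherry cells, both with rapamycin (-0.63, edgeR adjusted p = 0.000479). CHAC1 and ATF4 were higher in that comparison (0.90 and 0.27), so that 2 of 14 were higher and 3 lower with rapamycin (14% of all genes called and 6.88% lower), and 0 higher and 2 lower with DMSO (7.03% and 3.25%). Both CHAC1 and ATF4 were also called lower with rapamycin in no-mCherry cells (below), a comparison that shares the no-mCherry rapamycin libraries. The calls of CDKN1A, MDM2 and TXNIP held in all 11 alternative fits of each comparison. CHAC1 was no longer called without SPARK-OFF rapamycin replicate 3 (0.68, adjusted p = 0.0929) or no-mCherry rapamycin replicate 3 (0.78, adjusted p = 0.0691), and ATF4 without any 1 of the 6 libraries compared (0.23 to 0.305, adjusted p up to 0.142, edgeR). HIF1A, FOXO1 and FOXO3 were not called between the lines. Against eGFP control cells CDKN1A and MDM2 were lower in SPARK-OFF cells with rapamycin (-0.83 and -0.59) and with DMSO (-0.79 and -0.79). TXNIP was higher in all 4 fusion groups, by a log2 fold change of 0.75 in both SPARK-OFF groups, 1.38 in the no-mCherry line with rapamycin and 0.98 there with DMSO.

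The same list gave no call for rapamycin against DMSO in SPARK-OFF cells (0 of 14 in edgeR, 1 with an unadjusted p under 0.05, 0 in DESeq2). In no-mCherry cells 2 of 14 were called, both lower, where 1.62% of all genes were called and 1.17% lower. ATF4, the amino acid stress transcription factor, had 600 ± 30.4 CPM with rapamycin and 783 ± 77.55 CPM with DMSO (SD, n = 3 each), a log2 fold change of -0.38 (edgeR adjusted p = 0.0243). CHAC1, a glutathione-degrading enzyme induced by ATF4, had -0.97 (edgeR adjusted p = 0.0363). For the interaction 0 of 14 passed in edgeR, 4 had an unadjusted p under 0.05 (share of all genes not computed) and 0 passed in DESeq2. As for DDIT4, these calls did not hold in every alternative fit. With these groups alone 2 of all genes were called, against 298 in the fit of all libraries, and neither ATF4 (-0.38, adjusted p = 0.232) nor CHAC1 (-0.96, adjusted p = 0.114) was among them. ATF4 was also no longer called without no-mCherry rapamycin replicate 1 (-0.345, adjusted p = 0.143), 2 (-0.42, 0.0554) or 3 (-0.39, 0.0935) or without no-mCherry DMSO replicate 3 (-0.30, 0.0566). CHAC1 was no longer called without no-mCherry rapamycin replicate 1 (-1.02, adjusted p = 0.106), 2 (-1.04, 0.0885) or 3 (-0.85, 0.163) or without no-mCherry DMSO replicate 1 (-1.05, 0.0505) or 3 (-0.80, 0.124), all in edgeR.

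The genes whose profile over the 15 libraries was most like that of DDIT4 were found among 11374 genes with a mean of at least 5 CPM, by Pearson's r of log2 CPM. They were ICAM5 (0.958), an adhesion protein of neurons, NSMF (0.956), ADAT2 (0.951), a tRNA adenosine deaminase subunit, PYCR1 (0.95), an enzyme of proline synthesis, and KDM1B (0.948), a histone demethylase. ICAM5 had 21.3 to 25.7 CPM in both SPARK-OFF groups, 22.8 to 27.9 CPM in the no-mCherry line with rapamycin and 28.4 to 30.8 CPM there with DMSO, against 46.7 to 50.4 CPM in eGFP control cells. PYCR1 had 81.9 to 99.0 CPM in SPARK-OFF cells and 93.0 to 119 CPM in no-mCherry cells, against 141 to 159 CPM in eGFP control cells. The 15 points fall into 5 groups with eGFP control cells at one end, so these values describe a shared step between fusion and control cells.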

How the data were processed

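Per the labels and the study's methods, the authors trimmed reads with fastp and aligned them to hg38 with STAR, and their notes also name FastQC, HTSeq and edgeR, without versions. The deposited table holds raw counts per gene. Annotation and strand setting were not given in the sources used here. Of the 61533 identifiers, 61369 matched GENCODE v44 without version. Genes were kept by filterByExpr (18391), scaled by TMM (factors 0.901 to 1.05) and fitted over all 15 libraries with edgeR 4.0.16 in R 4.3.3 (quasi-likelihood, no replicate block). The common biological coefficient of variation was 0.111. Standard errors are the coefficient over the root of its F statistic. Levels per kilobase use the canonical transcript. Among the members, counts limit the precision most for DEPTOR. The fit was run on simulated counts with known changes planted in SPARK-OFF rapamycin libraries alone, which does not test the other comparisons. Alternatives were RLE factors, no filter, a replicate block, the compared groups alone, each library left out, DESeq2 1.42.0, and the study's thresholds (P under 0.01, |log2 fold change| of 0.58 or more, FDR under 0.1). The members and lists were chosen with earlier results of these data known. Besides the 10 members, list genes were named where called with a log2 fold change of 0.58 or more in size, up to 6 per comparison by smallest p, with the 5 genes most like DDIT4. Levels of the members were not tested against eGFP control cells. Some items that the lists or the motif search cover are not reported here.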

Additional observations from a re-analysis of the deposited data

How the results depend on the processing

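Of 610 member values under alternatives in the tested comparisons, 596 kept their side of the threshold, 13 were no longer called and 1 became called. A change of direction was counted only where either fit called the gene, and 0 of these reversed. Values called in neither fit could change sign. RPTOR did so for rapamycin in no-mCherry cells (log2 fold change -0.114 to 0.0896). RLE factors, no filter and DESeq2 left the number of members called as it was (0 with rapamycin in SPARK-OFF cells, 1 in no-mCherry cells, 0 for the interaction, and 3 between the lines in each treatment). So did the replicate block. Deviations of log2 CPM from the group mean correlated from -0.206 to 0.168 between same-numbered libraries of compared groups. This shows no clear pairing by number, but with 3 libraries per group it cannot exclude one. With the compared groups alone, and with the study's thresholds, 0 members were called for rapamycin in no-mCherry cells and 1 (SESN3) between the lines with DMSO. Without 1 library the counts ran from 0 to 0 for rapamycin in SPARK-OFF cells, 0 to 1 in no-mCherry cells, 0 to 0 for the interaction, 1 to 3 between the lines with DMSO and 3 to 3 with rapamycin.

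Calls of other list genes against eGFP control cells were not recomputed in alternative fits. The 17 calls of such genes between fusion groups were recomputed in these fits, after the data had been seen, and reversed in none. Of them 8 were no longer called in at least 1 fit, among them, under the replicate block, CHAC1 for rapamycin in no-mCherry cells (-0.96, adjusted p = 0.0561 in edgeR) and ATF4 between the lines with rapamycin (0.27, 0.0634), and, without a filter, WDR24 (-0.39, 0.0506) and ATF4 (0.26, 0.106) between the lines with rapamycin.

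Counts over all genes moved more. For rapamycin in SPARK-OFF cells 24 genes were called, 61 without a filter, 63 with these groups alone, 46 with DESeq2 and 11 to 19 without 1 library. For rapamycin in no-mCherry cells 298 were called, 2 with these groups alone, 753 with DESeq2, 151 at the study's thresholds and 83 to 381 without 1 library. For the interaction 18 were called, 51 without a filter, 8 with the block, 88 with DESeq2, 35 at the study's thresholds and 2 to 80 without 1 library. Between the lines 1293 were called with DMSO (455 with these groups alone, 830 at the study's thresholds, 658 to 1603 without 1 library) and 2566 with rapamycin (3920, 1027 and 1542 to 1826). The cause was not tested. Depth limits DEPTOR, with 36 counts in its lowest library.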
